A study of Mus musculus with 25 samples.

Results

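The ribosomal protein genes encode the protein parts of the cytosolic ribosome. Members were the protein-coding genes whose symbol is Rpl or Rps and a number, with an optional a, l, x or p, together with Rplp0, Rplp1, Rplp2 and Rpsa. Kinase genes of the Rps6k type and pseudogenes were left out. This gave 81 of 21887 protein-coding mouse genes, 50 of the large subunit and 31 of the small subunit. A gene was counted in a peak list when a peak overlapped the 1 kb on either side of either gene end by at least 1 bp. The other 21806 protein-coding genes were counted in the same way.

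The series mapped proteins on chromatin by ChIP-seq in 2 mouse cell lines, to study how the transcription factor TCF-1 (gene Tcf7) reorganises the 3D genome. NIH-3T3 is a fibroblast line, and its 7 peak lists came from untreated cells or from cells in which TCF-1 was induced. Scid.adh is a T cell progenitor line labelled DN3, a thymocyte stage before the T cell receptor is complete, and its 18 lists came from cells with an empty vector or a TCF-1 knockout (KO). CTCF, a DNA-binding insulator protein, and SMC1, a subunit of the cohesin ring, were mapped in both lines. NIPBL, which loads cohesin, and H3K27ac, a histone acetylation of active promoters and enhancers, were mapped in DN3 cells of both genotypes. TCF-1 itself was mapped in empty vector DN3 cells and in induced fibroblasts. Each group had 2 lists, except the single fibroblast lists of untreated SMC1, induced SMC1 and induced TCF-1. The labels do not say whether lists of a group came from separate cultures or whether the knockout was 1 clone, so the spread between them may be technical. Neither the inducing agent nor the vector is described in the labels.

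A ribosome joins a small subunit, which reads the messenger RNA, to a large subunit, which forms the peptide bonds. Ribosomal protein genes are short, are active in nearly all dividing cells, and need balanced output because each protein is used in equal amounts in most ribosomes. Many of their messages begin with a run of pyrimidines at the cap, through which mTOR signalling controls their translation, and many of their introns carry small nucleolar RNAs (snoRNAs) that guide modification of ribosomal RNA. In this annotation 29 of the 81 members had a snoRNA gene inside, the members lay on 19 chromosomes, and their median length was 3175 bp, against 17270 bp for other genes.

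The lists differed in length, which bears on every count of genes. They held 38369 to 68306 peaks for CTCF, 70438 to 105033 for SMC1, 36544 to 42180 for H3K27ac and 9206 to 23951 for NIPBL. The TCF-1 lists held 4978 and 5356 peaks in DN3 cells and 39489 in fibroblasts. The longest NIPBL list, KO replicate 1, stood apart from the other 3. Of 10 DN3 marker genes 9 had H3K27ac in every DN3 list, the exception being Rag2, against 3 of 10 fibroblast markers (Pdgfrb, S100a4 and Thy1), 1 of 4 B cell markers (Cd79a) and 1 of 4 myeloid markers (Spi1). In fibroblasts all 10 fibroblast markers and 4 of 10 DN3 markers had SMC1 in both lists. Thy1 belonged to both the DN3 and the fibroblast set and is counted in each.

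Promoter sequences were available in the RefSeq table of GRCm38.p6 (mm10) for 61 members, and those of 6 genes are shown from 250 bases before the annotated start to 20 bases after it. Rps26, Rpl26 and Rpl4 are shown because a TCF-1 peak of high rank covered their start in both DN3 lists. At Rpl4, ends of Snapc5 and Zwilch lie in the same windows. Rps26 sits where messenger RNA leaves the small subunit, Rpl26 belongs to the large subunit, and Rpl4 lines the tunnel through which the new protein leaves. Rpl6, Rpl39 and Rpl10l are shown because theirs were the only member promoters with the letters CTTTGA, and none of these genes had a TCF-1 peak in DN3 cells. CTTTGA is a form of the core that TCF/LEF factors bind in vitro. Other forms, such as CTTTGT, were not sought. Capitals mark CTTTGA or CCGGAA, the latter a core of ETS-type sites, on either strand (TCAAAG and TTCCGG when read on the other strand), within the printed stretch.
Rps26, chr10:128626487-128626756, minus strand: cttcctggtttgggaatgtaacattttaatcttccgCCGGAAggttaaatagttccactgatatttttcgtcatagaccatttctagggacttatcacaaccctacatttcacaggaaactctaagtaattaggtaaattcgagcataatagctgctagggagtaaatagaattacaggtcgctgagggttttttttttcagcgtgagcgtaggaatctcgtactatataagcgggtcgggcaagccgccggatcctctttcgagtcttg
Rpl26, chr11:68901316-68901585, plus strand: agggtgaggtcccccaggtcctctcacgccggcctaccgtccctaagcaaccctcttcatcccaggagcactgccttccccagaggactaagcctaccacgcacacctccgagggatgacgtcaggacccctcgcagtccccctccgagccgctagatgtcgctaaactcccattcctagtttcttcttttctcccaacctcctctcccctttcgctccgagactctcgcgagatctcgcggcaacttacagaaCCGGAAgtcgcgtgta
Rpl4, chr9:64173137-64173406, plus strand: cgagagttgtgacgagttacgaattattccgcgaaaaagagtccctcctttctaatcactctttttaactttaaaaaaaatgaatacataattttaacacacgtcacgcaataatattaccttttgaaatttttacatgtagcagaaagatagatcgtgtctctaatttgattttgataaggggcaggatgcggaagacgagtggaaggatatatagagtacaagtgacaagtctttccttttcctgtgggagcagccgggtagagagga
Rpl6, chr5:121204251-121204520, plus strand: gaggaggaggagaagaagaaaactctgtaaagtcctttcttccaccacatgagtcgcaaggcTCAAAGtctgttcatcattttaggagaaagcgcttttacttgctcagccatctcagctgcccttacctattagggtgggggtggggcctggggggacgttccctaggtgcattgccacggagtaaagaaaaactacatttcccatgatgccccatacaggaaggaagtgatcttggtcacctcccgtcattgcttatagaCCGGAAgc
Rpl39, chrX:37085203-37085472, minus strand: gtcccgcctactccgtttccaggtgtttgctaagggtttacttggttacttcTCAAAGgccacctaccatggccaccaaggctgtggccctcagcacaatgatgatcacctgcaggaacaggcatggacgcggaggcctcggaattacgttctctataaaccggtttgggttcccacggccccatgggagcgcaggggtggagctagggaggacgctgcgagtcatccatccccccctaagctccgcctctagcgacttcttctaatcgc
Rpl10l, chr12:66284382-66284651, minus strand: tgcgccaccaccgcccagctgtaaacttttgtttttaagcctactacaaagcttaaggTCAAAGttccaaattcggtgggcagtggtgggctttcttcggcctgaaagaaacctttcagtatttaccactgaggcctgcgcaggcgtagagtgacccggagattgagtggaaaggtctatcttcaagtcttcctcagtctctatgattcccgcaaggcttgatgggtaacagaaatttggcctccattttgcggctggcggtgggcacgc

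Almost every ribosomal protein gene carried active chromatin in DN3 cells. H3K27ac was found at 77 of 81 members (95.1%) in each of the 4 lists, against 46.3% to 47.5% of other genes. SMC1 was found at 85.2% and 87.7% of members in the empty vector lists and 88.9% and 87.7% in the KO lists, with 46.6% to 50.2% of other genes. NIPBL was found at 69.1% and 88.9% of members in the empty vector lists and 92.6% and 84.0% in the KO lists, against 29.5% to 43.8% of other genes. CTCF was present at fewer members, 53.1% and 60.5% with empty vector and 61.7% and 56.8% in KO, against 27.3% to 36.1% of other genes. Over all 25 lists the median gap between members and other genes was 37.4 percentage points.

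The gap was smaller against other genes with active chromatin. The 9770 other genes with H3K27ac in all 4 DN3 lists, called acetylated genes from here on, served as a second comparison. These genes were picked by H3K27ac, so the H3K27ac lists were left out of it. Over the other 21 lists the median gap was 2.6 points for all 81 members, which were higher in 12 lists. It was 4.3 points for the 77 members with H3K27ac in all 4 lists, which were higher in 16. SMC1 was found at 90.4% to 93.4% of acetylated genes in the DN3 lists, above the 77 acetylated members in each list (88.3% and 90.9% with empty vector, 92.2% and 90.9% in KO). NIPBL was found at 64.8% and 85.5% of acetylated genes with empty vector and at 93.0% and 78.5% in KO, below the acetylated members in each list (72.7% and 93.5%, then 97.4% and 88.3%). These shares are descriptions, with no test of the difference between gene sets.

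**Figure D1:**
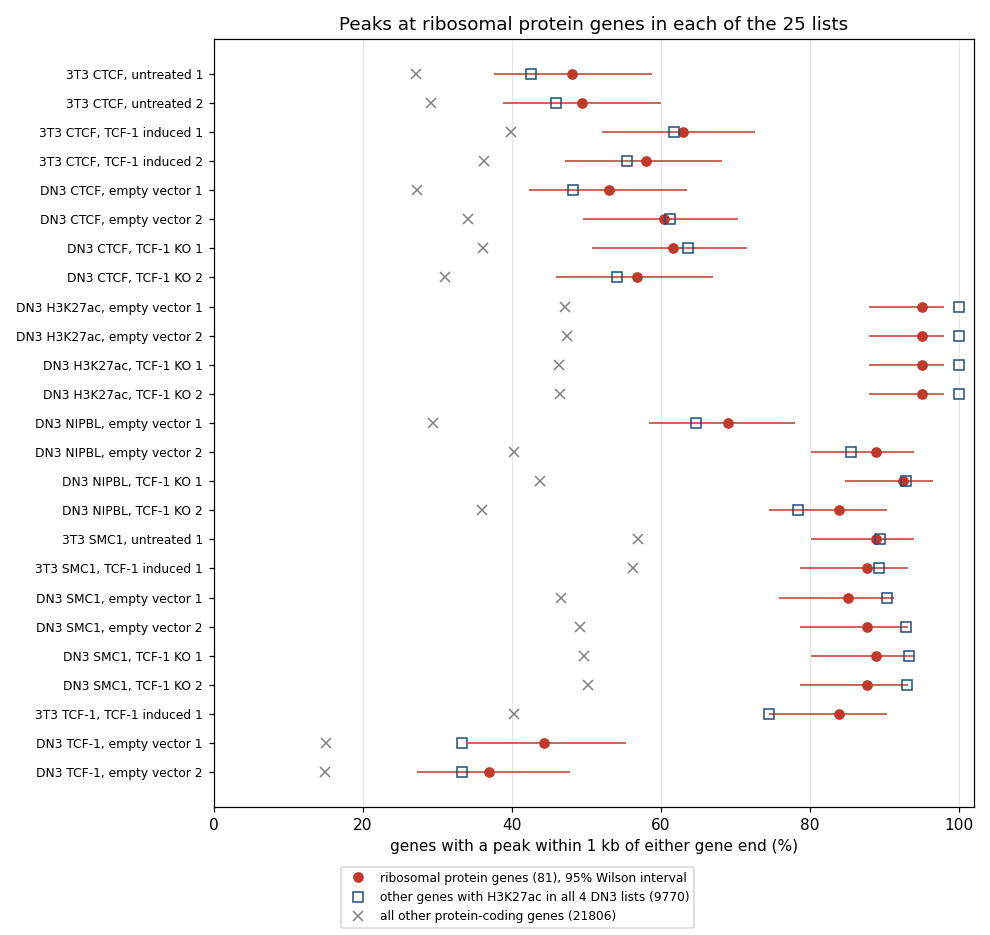
Share of genes with a peak within 1 kb of either gene end (x axis, percent) in each of the 25 lists (y axis). Filled circles are the 81 ribosomal protein genes with 95% Wilson intervals, open squares the 9770 other acetylated genes and crosses all 21806 other genes; the intervals treat genes as independent. Circles lie to the right of the crosses in every list and close to the squares in most lists.

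The members' H3K27ac peaks ranked high within their lists. A peak's rank is its percentile in its own list, by the authors' −log10 q-value for H3K27ac and NIPBL and by width for the other antibodies. The median member with a peak ranked at 97.6 and 97.7 in the empty vector H3K27ac lists and 97.5 and 97.4 in KO, while the median acetylated gene ranked between 87.7 and 89.5. The lowest was Rpl3l, the paralog of Rpl3 known from heart and skeletal muscle, at 76.2 in empty vector replicate 1 and 73.2 in KO replicate 1. An end of Msrb1 lay in the windows of Rpl3l, so peaks there cannot be assigned to Rpl3l alone. DN3 CTCF peaks of members ranked at medians of 83.1 to 89.1, against 73.4 to 74.8 for acetylated genes. NIPBL medians were 62.0 and 74.2 with empty vector and 86.7 and 72.8 in KO, against 57.4 to 79.3. SMC1 medians lay close together in DN3 cells, 88.2 to 91.2 for members and 85.1 to 90.1 for acetylated genes.

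Members differed among themselves in how many lists held them. The median was 20 of 25 lists, and 41 members were in 20 or more. A peak stood in all 25 lists at 11 members. Among them were Rplp0, the base of the stalk that recruits elongation factors, Rpl4, Rpl7a, Rpl10a, Rpl26, Rpl27, Rpl35 and Rpl37 of the large subunit, and Rps15 and Rps19 of the small subunit. Rpl27a joined them when only the DN3 lists were counted, making 12. CTCF was found in every list of both lines at 35 members (19.2% of other genes) and in no list at 19. SMC1 was found in every list of both lines at 65 members (42.0% of other genes) and in no list at 6, namely Rpl10l, Rpl13a, Rpl17, Rpl32l, Rps21 and Rps29.

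Rpl13a, Rps21 and Rps29 combined wide H3K27ac coverage with no CTCF, SMC1 or TCF-1 peak in any list. H3K27ac covered 4002 bp at the ends of Rpl13a in all 4 lists. It covered 2923 and 2974 bp at Rps21 with empty vector and 2423 and 2793 bp in KO. An end of Cables2 lay in the windows of Rps21. NIPBL was present at all 3 genes in all 4 lists, from 468 bp at Rps21 in empty vector replicate 1 to 1823 bp at Rpl13a in KO replicate 1. At these 3 genes the cohesin loader was listed without the ring subunit.

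**Figure D2:**
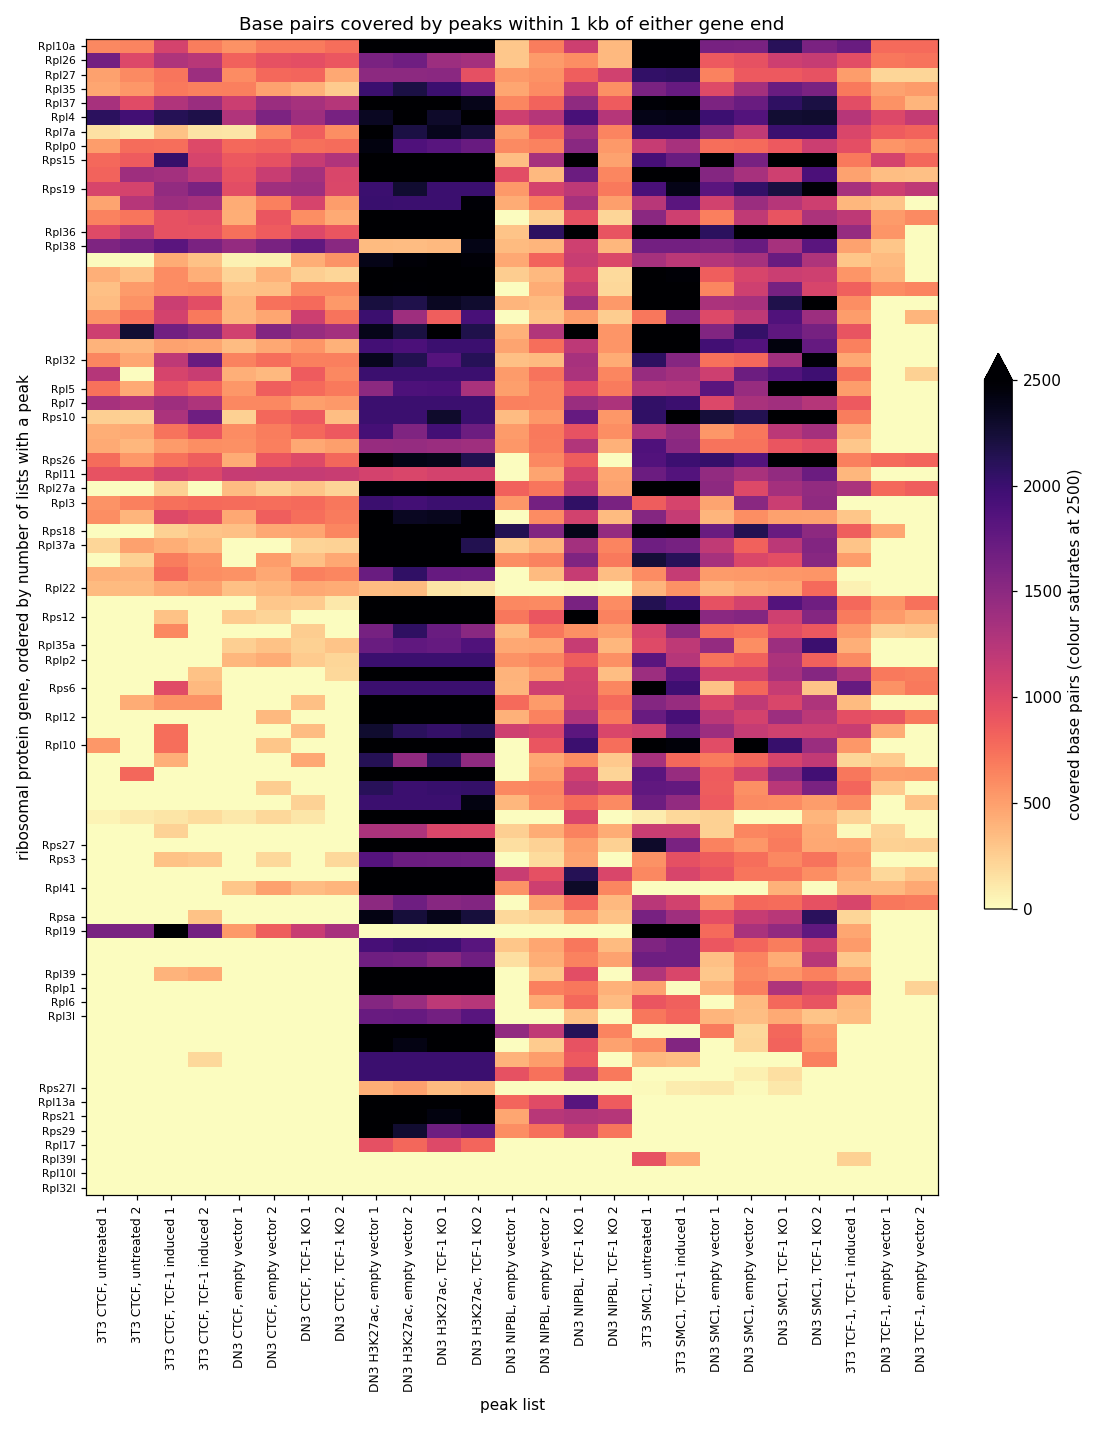
Base pairs covered by peaks within 1 kb of either gene end (colour, saturating at 2500 bp) for the 81 members (rows, ordered by the number of lists with a peak, some of them labelled) in the 25 lists (columns). The H3K27ac columns are filled for 77 members, and the 19 members without any CTCF peak lie mainly in the lower part.

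The paralogs with an l ending were in fewer lists than the genes they are named after. Rpl10l, an intronless copy of X-linked Rpl10 known from the male germ line, and Rpl32l had no peak in any list, whereas Rpl10 was in 17 lists and Rpl32 in 23. Rpl39l, a testis paralog of Rpl39, had no DN3 peak and 3 fibroblast peaks, SMC1 over 920 bp untreated and 438 bp induced and TCF-1 over 240 bp. Rpl3l, with the end of Msrb1 in its windows, was in 12 lists and Rpl3 in 22. Rps27l, a paralog of Rps27 known as a p53 target, was in 9 lists and Rps27 in 17. The annotated starts of Rps27l lie 1462 and 1789 bp inside its span, beyond the counted windows, and an annotated start of Rpl3l lies 4859 bp inside. How the authors treated reads that match near-identical copies is not given in the sources at hand, so these values are uncertain.

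Rpl19 had no H3K27ac within 1 kb of its gene ends in any list. Its gene span is chr11:98022003-98030493, but the promoter table puts its start at position 98026710, 4707 bp inside the span. H3K27ac, NIPBL and SMC1 peaks lay at that inner start in all lists, and TCF-1 peaks lay there in all 3 lists. Rpl22, a large subunit protein required for the development of αβ T cells, has a second annotated start 1290 bp inside its span, beyond the counted windows. H3K27ac covered 350 and 354 bp of its end windows with empty vector and 133 and 113 bp in KO, while CTCF covered 326 to 491 bp in all 8 lists. Its acetylation peak still ranked at 97.8 in empty vector replicate 1 and 98.4 in KO replicate 2.

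TCF-1 in DN3 cells was listed at a subset of the ribosomal protein genes. Peaks were present at 36 members (44.4%) in empty vector replicate 1 and 30 (37.0%) in replicate 2, against at most 15.1% of other genes in either list and 33.4% and 33.3% of acetylated genes. Both lists held 26 members (32.1%), 1 list held 14 and neither held 41. Of acetylated genes 24.9% were in both lists. The count of 26 was made up of 15 of 50 large subunit genes and 11 of 31 small subunit genes. Another protein-coding gene's end lay in the windows of 29 of the 81 members and of 10 of these 26, so peaks there cannot be assigned to 1 gene. Without empty vector replicate 2 the count was 36, and without replicate 1 it was 30.

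Other gene groups of protein synthesis are given for reference. TCF-1 was in both DN3 lists at 16 of 37 cytosolic translation factors, 15 of 40 ribosome assembly genes and 24 of 78 mitochondrial ribosomal protein genes. No test was made between these lists.

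The strongest member by rank was Rps19, needed to mature the small subunit and mutated in Diamond-Blackfan anaemia. Its gene is chr7:24884592-24889811, and its TCF-1 peaks were 1109 and 1195 bp wide in DN3 cells and 1340 bp in fibroblasts. The lower of its ranks in the DN3 lists was 98.8. Rpl4, at chr9:64173387-64178562, followed at 98.0, with widths of 1006 and 1170 bp in DN3 cells and 1048 bp in fibroblasts. Ends of Snapc5 and Zwilch also lay in the windows of Rpl4, so its peaks cannot be assigned to Rpl4 alone.

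The next 6 by the lower rank all exceeded 90 (the lowest of them being Rpl26 at 91.1). Rpl7a reached 95.1, with peaks of 867 and 820 bp in DN3 cells. Rpl27a reached 93.8 with 786 and 840 bp. Rpl10a, part of the L1 stalk that releases spent tRNA, reached 93.4 with 773 and 781 bp. Its fibroblast peak, 2079 bp, was the widest of these 8 genes. Rps26 reached 93.3 with 772 and 805 bp, the letters of its promoter being printed above. Rpl12, at the base of the stalk, reached 91.5 with 913 and 708 bp, and Rpl26 had 706 and 724 bp. Ends of other genes lay in the windows of Rpl7a (Med22 and Surf1), Rpl10a (Tead3) and Rpl12 (Lrsam1). Peaks there cannot be assigned to the member alone. All of these members were picked for wide peaks in both lists, so their widths describe the choice. Elsewhere the lists could differ, as at Rps18 with 465 and 0 bp and Rpl36 with 551 and 0 bp. Rpl27 was in both lists at a far lower rank, 9.57.

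In fibroblasts with induced TCF-1, 68 members (84.0%) had a peak in the single list, against 40.3% of other genes and 74.5% of acetylated genes. All 26 members of both DN3 lists were in it, which is 100% of the 26 and 38.2% of the 68. Among other genes the shares were 95.3% and 26.5%. A peak in fibroblasts alone was found at 28 members and no TCF-1 peak at the gene ends in any list at 13. The fibroblast list held 39489 peaks and had no replicate, while the DN3 lists held 4978 and 5356, so the lines were not compared by a test.

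The other proteins were counted at members with TCF-1 in both DN3 lists and at members without TCF-1 at their gene ends in either, as a description with no test. SMC1 was in every DN3 list at 25 of the 26, NIPBL at 21, CTCF at 16 and H3K27ac at 26. Among other genes with TCF-1 in both lists the shares were 99.3% for SMC1, 80.9% for NIPBL, 54.9% for CTCF and 99.6% for H3K27ac, beside 96.2%, 80.8%, 61.5% and 100% of the 26 members. For the 41 members with no TCF-1 at their gene ends the counts were 28, 23, 17 and 37 (68.3%, 56.1%, 41.5% and 90.2%). The shares of other genes with TCF-1 in no DN3 list were lower, at 32.3%, 16.1%, 18% and 32.2% in the same order. At 4 of the 41 TCF-1 lay on an annotated promoter further inside the gene, and without these 4 the counts were 26, 23, 15 and 34 of 37. Mean H3K27ac coverage in the empty vector lists was 2644 and 2699 bp at the 26 and 1979 and 1926 bp at the 41. In the KO lists it was 2650 and 2595 bp at the 26 and 1912 and 1848 bp at the 41. A snoRNA gene lay inside 9 of the 26 and 19 of the 41.

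Position separated the antibodies. For 51 members over 2 kb with a known strand, TCF-1 lay within 1 kb of the annotated start at 52.9% and 39.2% in DN3 cells and at the far end of none, a count of 0 of 51 in both lists. Among 2236 acetylated genes of 2 kb up to the length of the longest member, 11774 bp, the start shares were 30.1% and 29.6% and the far-end shares 3.26% and 3.09%. Within that range these genes were not matched to the members in length, which bears on all far-end shares. Fibroblast TCF-1 lay at the start of 90.2% and the far end of 13.7% of the 51, against 69.6% and 10.1% of those acetylated genes. H3K27ac reached the far end of 49.0% to 56.9%, against 28.5% to 29.8% of those acetylated genes. SMC1 reached the far end of 39.2% to 47.1% in DN3 cells, against 27.8% to 34.2%. NIPBL did so at 7.84% in 3 lists and 25.5% in KO replicate 1. The shares of those acetylated genes were 6.53% and 12.1% with empty vector and 18.1% and 9.75% in KO. CTCF reached the far end of 21.6% to 25.5% of the 51 in DN3 cells, against 16.1% to 21.0%.

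The highest-ranking peak at a member was centred near the start for TCF-1, with a median offset of 48 and 16 bp in the DN3 lists and -2 bp in fibroblasts. H3K27ac peaks were centred further into the gene, at medians of 640 to 734 bp. NIPBL peaks were centred 94 to 189 bp into the gene and SMC1 peaks 8 to 71 bp in DN3 cells.

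**Figure D3:**
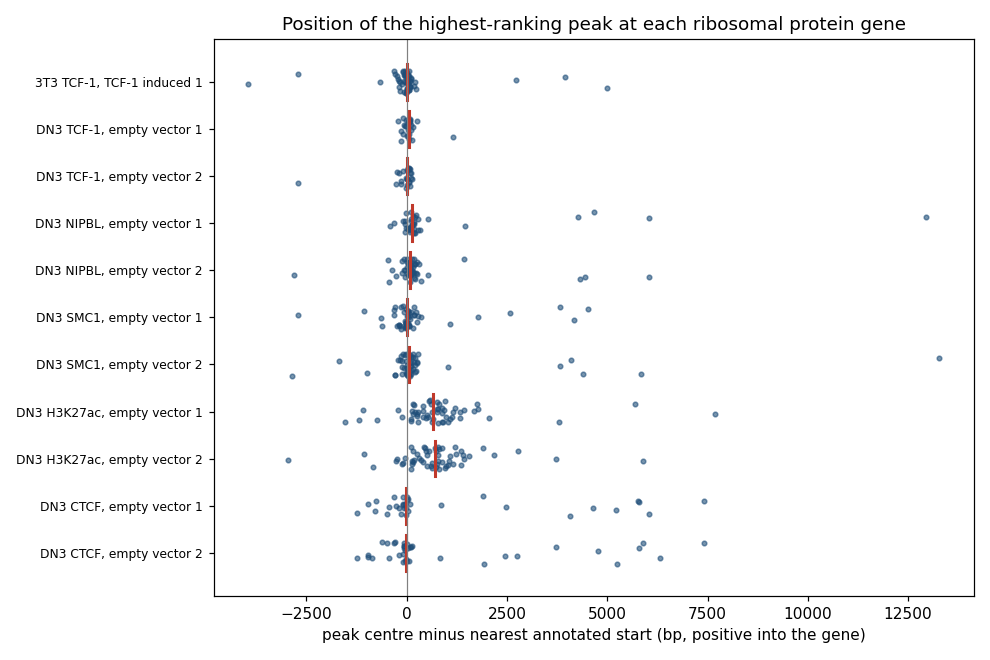
Centre of each member's highest-ranking peak relative to the nearest annotated start (x axis, bp, positive into the gene) in the empty vector DN3 lists and the fibroblast TCF-1 list (y axis); 1 point is 1 gene and the red bar the median. TCF-1, NIPBL and SMC1 points gather near the start and H3K27ac points are shifted into the gene. CTCF points spread further into the gene than upstream of the start.

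CCGGAA and the pyrimidine run had a larger share among member promoters than among all promoters, without a test. Motifs were sought in the 300 bases from 250 before to 50 after each annotated start, and all counts refer to this window. Both strands were searched, except for the pyrimidine run, which was sought on the gene strand only. CCGGAA was present at 33 of 61 members (54.1%), against 20.9% of all 17492 promoters and 34.7% of acetylated genes. A pyrimidine run of at least 5 bases starting with C within 10 bases of the start was present at 39 members (63.9%), against 34.9%. GGGCGG, the Sp1-type box, was present at 59.0% of members, 49.2% of all promoters and 68.7% of acetylated genes. CTTTGA was present at 3 members (4.92%), against 16.7% of all promoters. TATAAA was found at 11.5% and 14.8%, CACGTG at 9.84% and 8.91%, and AAGATGG, a YY1-type sequence, at 14.8% and 7.18%. Median GC content was 56.7% in members and 56.3% in other genes.

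The same letters were counted in members with and without TCF-1. Of the 26 members in both DN3 lists 21 had a promoter entry, and in all 21 the TCF-1 peaks overlapped the 300 bases in both lists. Of the members with no DN3 TCF-1 peak at their gene ends 30 had a promoter entry, and at 4 of these 30 a TCF-1 peak lay on a promoter further inside the gene. CTTTGA was in 0 of the 21 and in 3 of the remaining 26, the Rpl6, Rpl39 and Rpl10l sequences shown above. It was in 13.7% of other genes with TCF-1 in both DN3 lists. CCGGAA was in 12 of the 21 and 12 of the 26. A match describes letters in this window and not binding, and peaks reach beyond the window. Forms of the TCF/LEF core other than CTTTGA were not counted.

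CTCF was listed at more ribosomal protein genes in both induced fibroblast lists than in both untreated lists, a difference also present in other genes and one that 2 lists a group could not bring past the test. It was at 48.1% and 49.4% of members in untreated cells and 63.0% and 58.0% after induction, so the groups did not overlap. The means were 48.8% ± 0.873 and 60.5% ± 3.49 (SD, n = 2 lists each), a difference of 11.73 points. The exact permutation test over lists gave p = 0.333, the smallest that 2 lists against 2 allow, and p = 0.933 after Benjamini-Hochberg adjustment over 7 comparisons. The mean shares among other genes were 28.2% untreated and 38.1% induced, and the difference among acetylated genes was 14.38 points. The induced lists were also longer, 68306 and 64645 peaks against 38369 and 41236.

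A CTCF peak in both induced lists and neither untreated list was found at 4 of 81 members, beside 5.35% of all genes. They were Rps3, at the entry of the messenger RNA channel, Rps6, the classic substrate of S6 kinase, Rps18 of the small subunit head, and Rpl39 in the exit tunnel. At Rps6 CTCF covered 0 and 0 bp untreated and 983 and 371 bp induced. At Rpl39 it covered 399 and 444 bp, at Rps18 238 and 310 bp and at Rps3 316 and 292 bp after induction. Ends of B3galt4 and Vps52 lay in the windows of Rps18, so its peaks cannot be assigned to Rps18 alone. No member had CTCF only in the untreated lists, beside 0.0366% of all genes. Under a threshold at the median width, 0 members were found only after induction. The count was 7 without induced replicate 1 and 10 without induced replicate 2.

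Covered length followed the same course. CTCF covered a mean of 355.9 ± 15.5 bp per member untreated and 540.6 ± 52.3 bp induced (SD, n = 2), a ratio of 1.52, against 1.64 in acetylated genes. Coverage was higher in both induced lists than in both untreated lists at 30 members (37.0%), beside 25.3% of all genes and 37.8% of acetylated genes. It was lower at 1 member, Rpl36, beside 0.375%. Ends of Lonp1 and Micos13 lay in the windows of Rpl36. The widest gain was at Rps10, with 252 and 236 bp untreated and 1316 and 1682 bp induced. The genes named here for their coverage were chosen after their values were seen.

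Fibroblast SMC1, with 1 list for each condition, had no replicate and no test. SMC1 was at 88.9% of members untreated and 87.7% induced, and covered a mean of 1544.0 and 1550.7 bp. The one member with SMC1 only in the untreated list, beside 2.15% of all genes, was Rplp1, an acidic protein of the stalk, where it covered 481 bp. No member had it only after induction, beside 1.5%.

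In DN3 cells the CTCF shares of the 2 genotypes overlapped. They were 53.1% and 60.5% with empty vector and 61.7% and 56.8% in KO, means of 56.8% ± 5.24 and 59.3% ± 3.49 (SD, n = 2 lists each; exact permutation p = 0.667, adjusted 0.933). Rps12, of the small subunit beak, had CTCF with empty vector only, over 273 and 220 bp, beside 0.356% of all genes. Rpl37a, a zinc-binding large subunit protein, had it in KO only, over 215 and 228 bp, beside 1.32%. Coverage was higher with empty vector at 6 members (7.41%), beside 1.93% of all genes and 3.27% of acetylated genes. It was lower at 12 (14.8%), beside 9.54% and 15.2%. With single lists left out these counts reached 21, without empty vector replicate 1, and 33, without empty vector replicate 2. Without empty vector replicate 1, the shortest of the 4 lists, the difference in share turned from -2.47 to 1.23 points.

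SMC1 was at 67 members in all 4 DN3 lists, at 7 in none and at 7 in some, and it covered less sequence in both empty vector lists than in both KO lists. The share was 86.4% ± 1.75 with empty vector and 88.3% ± 0.873 in KO (SD, n = 2 lists each; exact permutation p = 0.667, adjusted 0.933), and no member had SMC1 in one genotype alone, beside 0.242% and 1.08% of all genes. Mean coverage was 889.6 and 958.1 bp with empty vector and 1156.3 and 1223.3 bp in KO, a ratio of 0.776 against 0.83 in acetylated genes. The groups did not overlap, and the exact permutation p was 0.333, the smallest possible with n = 2 lists each.

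At 35 members (43.2%) both empty vector lists had less SMC1 coverage than both KO lists, beside 24.1% of all genes and 44.3% of acetylated genes. At 3 members they had more, beside 2.16%. The widest difference was at Rpl32, with 733 and 788 bp with empty vector and 1375 and 2470 bp in KO. Rpl5, which with Rpl11 and 5S ribosomal RNA can restrain Mdm2, had 1816 and 1433 bp with empty vector and 2496 and 2789 bp in KO. Rpl11 had 1463 and 1321 bp against 1459 and 1707 bp, which overlap. An end of Cand2 lay in the windows of Rpl32 and an end of Dipk1a in those of Rpl5. Coverage at Rpl32 and Rpl5 cannot be assigned to the member alone. The KO lists were longer, 88886 and 96416 peaks against 70438 and 77587.

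NIPBL values at the members varied widely between lists of the same genotype. The share was 79.0% ± 14.0 with empty vector and 88.3% ± 6.11 in KO (SD, n = 2 lists each; exact permutation p = 0.667, adjusted 0.933), and no member had NIPBL in one genotype alone, beside 0.119% and 0.946% of all genes. Coverage was 386.6 and 611.1 bp per member with empty vector and 1153.2 and 516.2 bp in KO. The mean difference was -335.8 bp with all lists and -17.3 bp without KO replicate 1. Coverage was lower in both empty vector lists at 19 members, beside 11.1% of all genes and 24.2% of acetylated genes, and higher at 0, beside 0.302%. With fewer lists to separate, the lower count was 53 without empty vector replicate 2 and 73 without KO replicate 2. Rpl7 was an example, with 662 and 651 bp against 1414 and 1303 bp. The difference in share was -9.26 points with all lists, -4.94 without KO replicate 1 and 0.62 without empty vector replicate 1.

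H3K27ac was present at the same 77 members in all 4 lists, with no member in one genotype alone, beside 1.06% and 0.471% of all genes (exact permutation p = 1, n = 2 lists each). Mean coverage was 2242.8 and 2219.3 bp with empty vector and 2177.6 and 2176.6 bp in KO, a ratio of 1.02 against 1.01 in acetylated genes, with an exact permutation p of 0.333, the smallest that 2 lists against 2 allow. Coverage was higher in both empty vector lists at 17 members (21.0%), beside 9.86% of all genes and 18.6% of acetylated genes, and lower at 6 (7.41%), beside 7.21% and 14.5%. Rpl10, which helps form the peptidyl transferase centre, had 3816 and 4002 bp with empty vector and 3084 and 2639 bp in KO. An end of Dnase1l1 lay in the windows of Rpl10. Rps29 had 2644 and 2271 bp against 1683 and 1795 bp. Rpl38, known for its part in translating Hox messages, had 356 and 349 bp against 364 and 2394 bp, so its lower mean with empty vector rests on KO replicate 2.

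**Figure D4:**
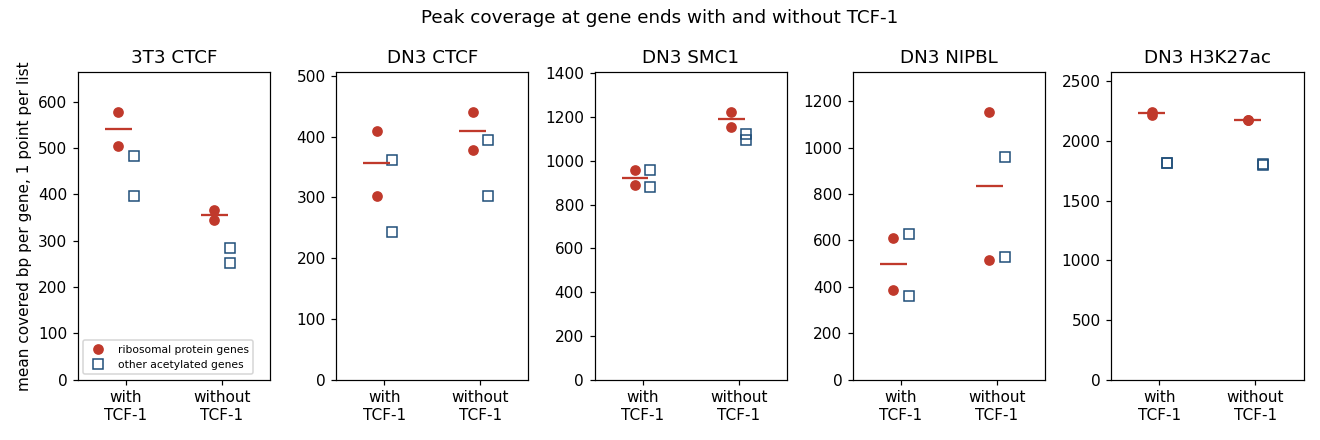
Mean base pairs covered per gene within 1 kb of its ends (y axis, from 0, a separate scale in each panel) with and without TCF-1, 1 point per list, for the 5 comparisons with 2 lists a group. Filled circles are the ribosomal protein genes with their mean as a line, and open squares are other acetylated genes; circles and squares move in the same direction in each panel, and the NIPBL lists without TCF-1 lie far apart.

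Between the lines, with 4 lists each, CTCF was at 58.0% ± 3.9 of members in DN3 cells and 54.6% ± 7.08 in fibroblasts (SD, n = 4; exact permutation p = 0.429, adjusted 0.933). CTCF stood in every DN3 list and no fibroblast list at 3 members, beside 1.1% of all genes. Rpl35a had 244 to 318 bp, Rpl41, the smallest of these proteins, 302 to 489 bp, and Rplp2 of the stalk 213 to 438 bp. Ends of Iqcg, Zc3h10 and Pidd1 lay in the windows of Rpl35a, Rpl41 and Rplp2, in that order. These peaks cannot be assigned to the members alone. No member had the reverse pattern, beside 2.78%. The direction of the difference in share turned to -4.63 points under the stricter threshold and to -2.78 points at equal list length.

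SMC1 was at 87.3% ± 1.55 of members in DN3 cells and 88.3% ± 0.873 in fibroblasts (SD, n = 4 and 2 lists; exact permutation p = 0.933, adjusted 1.0). SMC1 stood in every DN3 list and no fibroblast list at 1 member, beside 2.11% of all genes. The reverse held at 1 member, Rpl39l, beside 8.51%. The mean shares among other genes were 48.9% in DN3 cells and 56.6% in fibroblasts.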

How the data were processed

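Chromatin was crosslinked with formaldehyde, immunoprecipitated and sequenced as paired reads, per the labels' protocols. The submitters' processing notes name mm10 as the build, with Bowtie2, MACS2 and bedtools as tools. Settings and controls were not given in the sources used here and read totals were not used, so depth is unknown and intervals on shares (95% Wilson) cover gene counts only. The CTCF, SMC1 and TCF-1 lists that the authors deposited hold 3 columns of position. The NIPBL and H3K27ac lists hold 9 columns, of which the authors' deposited −log10 q-value (above 1 for all peaks) was used to rank peaks within a list. The deposited fold, score and −log10 p-value were not tested.

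The members and lists were chosen with earlier results of these data known. Genes and promoters came from RefSeq GRCm38.p6. Promoters of 61 members were matched. A few members are counted but not reported by name here. A peak counted at 1 bp of overlap with 1 kb around either gene end, and covered bp is the peak length in the merged windows. Groups were compared with two-sided exact permutation tests over lists, with Benjamini-Hochberg adjustment over 7 comparisons. The smallest p was 0.333 for 2 lists against 2, 0.0286 for 4 against 4 and 0.133 for 4 against 2. Named genes were members called in 1 group only, the 8 highest by DN3 TCF-1 rank, members without H3K27ac, paralogs with their parents, members in every DN3 list and stalk genes. On simulated data 200 of 200 planted peaks were recovered. The count of genes in each of the 25 lists was the same with bedtools. Alternatives were other windows, overlap, thresholds, list lengths, gene sets, a replicate block and leaving out each list. Software was bedtools 2.31.1, scipy 1.17.1 and numpy 2.4.6 under python 3.11.15, with matplotlib 3.10.9 for plots and pandas 2.3.3 for tables.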

Additional observations from a re-analysis of the deposited data

How the results depend on the processing

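Values for single members rest on peak lists without read depth, on widths in place of heights for 3 antibodies, and on 2 lists a group, where no exact test can pass 0.05. The gap of 37.4 points to other genes became 47.3 against short genes, 34.2 with a 2 kb window, 26.4 with 50% of the peak inside and 34.5 at the stricter threshold. Against acetylated genes it was -0.4 with the 4 H3K27ac lists, where the choice of those genes fixes a negative gap. Leaving those lists out, added after the data were seen, it was 2.6, and 4.3 for acetylated members alone.

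Differences in share changed sign for DN3 CTCF at equal list length (5.56 points), for fibroblast SMC1 at the stricter threshold (1.23), for SMC1 between the lines with a 2 kb window (0.93) and with 50% of the peak inside (8.33), and for CTCF between the lines at the stricter threshold (-4.63), at equal list length (-2.78) and without members near another gene end (-0.96). Leaving out 1 list gave 9.26 to 14.2 points for fibroblast CTCF, -6.17 to 1.23 for DN3 CTCF, -3.09 to -0.62 for DN3 SMC1, -19.14 to 0.62 for DN3 NIPBL, 1.23 to 6.17 for CTCF between the lines and -1.54 to -0.21 for SMC1 between them. DN3 CTCF coverage differed by -107.6 to 0.3 bp per member, 0.3 being without empty vector replicate 1.

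Counts of members listed only with TCF-1, leaving out 1 list, ran from 5 to 10 for fibroblast CTCF, 1 to 4 for DN3 CTCF, 0 to 1 for DN3 SMC1 and 0 to 1 for DN3 NIPBL. Counts only without TCF-1 ran from 0 to 1, 1 to 6, 0 to 2 and 0 to 13. Fibroblast CTCF gave 0 only with TCF-1 at the stricter threshold and 2 at equal list length. Fibroblast SMC1 gave 1 only with TCF-1 with a 500 bp window or 50% of the peak inside and 2 at the stricter threshold, and only without TCF-1 it gave 0 at annotated starts and 4 with 50% inside. DN3 CTCF gave 2 only without TCF-1 with windows of 500 bp or 2 kb, at annotated starts or with 50% inside, and 0 at the stricter threshold or equal list length; only with TCF-1 it gave 2 with 50% inside and 3 at equal list length. DN3 SMC1 only without TCF-1 gave 1 with a 500 bp window or equal list length and 2 at the stricter threshold. DN3 NIPBL gave 1 at the stricter threshold. H3K27ac with 50% inside gave 1 only with and 2 only without TCF-1.

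TCF-1 in both DN3 lists was found at 26 of the 81 members, and in either list at 40. With the 29 members near another gene end left out, which also makes the set smaller, both DN3 lists held 16. The counts in all 3 lists were also 40 and 16. The fibroblast count without those 29 was 42, against 68 of all 81. Leaving out a DN3 list gave 30 to 36. With the replicate number as a block the differences were 11.73, -2.47, -1.85, -9.26 and 0.0 points for fibroblast CTCF and DN3 CTCF, SMC1, NIPBL and H3K27ac, with exact p from 0.5 to 1.0 (0.5 is the smallest for 2 pairs). Same-numbered lists deviated together with r of -0.217 to 0.0202 across genes, which are not independent replicates. Crossing the numbers for DN3 CTCF and NIPBL, added after the data were seen, left the differences at -2.47 and -9.26 points. The exact permutation p was then 0.5 for each, the smallest that 2 pairs allow, so this test could not separate the genotypes under any pairing. The covered-length alternatives were also added after the data were seen. Leaving out 1 list there, the members with coverage higher in every list with TCF-1 numbered 36 to 42 for fibroblast CTCF, 7 to 21 for DN3 CTCF, 5 to 11 for SMC1, 0 to 13 for NIPBL and 25 to 30 for H3K27ac, and those lower numbered 1 to 5, 12 to 33, 39 to 50, 19 to 73 and 13 to 19.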
